A study of Mus musculus with 105 samples.

Results

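Collagens are the structural proteins of the extracellular matrix, and their genes were followed here through the first days after mouse embryonic stem cells (mESCs) leave pluripotency. A gene was taken as a collagen gene when its symbol consisted of Col, a type number, a and a chain number. By this rule 44 of the 52108 genes in each bulk count table are collagen genes, and 43 of them are among the 34120 genes of the single-cell table, which has no entry for Col10a1. No expression value entered the rule. The 44 genes were grouped by the kind of assembly their chains form, into 11 fibrillar, 6 basement membrane type IV, 6 beaded filament type VI, 9 fibril-associated (FACIT), 2 multiplexin, 4 transmembrane, 3 short chain network and 3 anchoring fibril or other genes.

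A collagen molecule is a triple helix of chains that are hydroxylated, glycosylated and folded in the endoplasmic reticulum before they are secreted. Fibrillar collagens (types I, II, III, V and XI among them) are trimmed outside the cell and crosslinked into fibrils. Type IV collagen is built into the sheet-like network of basement membranes together with laminins and nidogens, and its genes lie in head-to-head pairs. Early embryonic cells deposit basement membrane around the epiblast, whereas abundant fibrillar collagen I is a hallmark of mesenchyme and fibroblasts.

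The cells were of the female line TX1072 (clone A3) and of its derivatives TXdXicB6 and TXdXicCast. All are F1 hybrids whose parent strains are C57BL/6 (B6) and CAST/EiJ (Cast). The Rosa26 locus of TX1072 holds inserted rtTA, and Xist on its B6 X chromosome is preceded by a doxycycline-responsive promoter. Each derivative is a single clone, TxdXic_A1 or TxdXic_A6, made from TX1072 by a deletion around Xist on the named chromosome, so that only the X of the other strain can be inactivated by Xist. In TXdXicB6 the deleted B6 stretch includes Xist, in front of which TX1072 has the doxycycline-responsive promoter. All lines were grown in serum with LIF and 2i (3 µM of the Gsk3 inhibitor CT-99021 and 1 µM of the MEK inhibitor PD0325901) and sampled at day 0 and 1, 2, 3 and 4 days after withdrawal of 2i and LIF on fibronectin-coated plates. Bulk RNA came from 3 replicates per line and day, with 19827011 to 39628784 counts in each of the 15 TX1072 libraries and 16906263 to 57920260 counts in each of the 30 libraries of the deletion lines, and single TX1072 cells came from 1 culture per day. TX1072 and the deletion lines were prepared with different kits and sequenced on different instruments, so tests were made only within a table, and levels of TX1072 stand beside those of the deletion lines without a comparison. The labels do not say whether a difference between the 2 clones comes from the deletion or from the clone, and the design cannot tell them apart.

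Some libraries stood apart. The 3 TXdXicCast libraries of day 0 were fragmented differently because their RNA was degraded, and no test between the lines was made at day 0. In these libraries Col1a2 had 47.8, 24.8 and 49.4 CPM (counts relative to library size), against 16.0, 11.8 and 15.1 CPM in TXdXicB6. In TXdXicCast, replicate 3 differed from replicates 1 and 2 in markers of several cell types at days 3 and 4. At day 4 the summed level of 5 formative epiblast markers, with Dnmt3b the most abundant, was 1108, 1207 and 683 CPM in its 3 libraries and 1568, 1667 and 1250 CPM in TXdXicB6. The summed level of 7 mesoderm markers was 80.8, 67.3 and 197 CPM in TXdXicCast and 86.7, 126 and 89.8 CPM in TXdXicB6, with Eomes the most abundant gene in all but replicate 3 of TXdXicCast, where it was T at 90.5 CPM. Results of day 4 that depended on this replicate are given below with their values without it or with a statement that the call was lost.

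The marker lists went with the labels. In TX1072 the 8 embryonic stem cell markers fell from 5699, 5939 and 6330 CPM at day 0 to 953, 1033 and 1097 CPM at day 4 in sum, and 8 of 8 passed the test as lower. The 5 formative epiblast markers rose from 252, 312 and 255 CPM to 1027, 866 and 895 CPM, and 5 of 5 passed as higher. The 7 fibroblast markers stayed at 7.64 to 11.3 CPM in sum at both days, with Thy1 the most abundant gene and Dpt at 0 in all 6 libraries, and 1 of the 3 that could be tested, Twist2, passed as higher. Over all genes tested, 31.0% rose and 27.8% fell from day 0 to day 4. In bulk RNA, fewer cells of a type and less RNA per cell cannot be told apart.

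Among the type IV genes, the arrangement on the chromosomes matters for what follows. Col4a1 and Col4a2, which encode the chains of the ubiquitous network, start on opposite strands of chromosome 8, and their annotated first exons share 22 bases (chr8:11312805-11312826, GRCm38). Col4a6 and Col4a5 start 1309 bases apart on opposite strands of the X chromosome, and the rarely counted pair Col4a4 and Col4a3 start 72 bases apart on chromosome 1. The bases just before the annotated starts of the X-linked pair are shown because their alleles were followed below, with capitals for the motifs found in them, CCAAT before Col4a5 and GGGCGG, read on the other strand as CCGCCC, before Col4a6. The sequences are from RefSeq (GRCm38.p6), without bases that lie in annotated exons.

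Col4a5, chrX:141475169-141475384, plus strand, 216 bases: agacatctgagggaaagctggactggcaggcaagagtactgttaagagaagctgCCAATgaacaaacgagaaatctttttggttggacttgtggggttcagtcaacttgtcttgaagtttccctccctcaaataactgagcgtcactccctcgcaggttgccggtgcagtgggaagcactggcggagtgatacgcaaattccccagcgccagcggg

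Col4a6, chrX:141474077-141474326, minus strand, 250 bases: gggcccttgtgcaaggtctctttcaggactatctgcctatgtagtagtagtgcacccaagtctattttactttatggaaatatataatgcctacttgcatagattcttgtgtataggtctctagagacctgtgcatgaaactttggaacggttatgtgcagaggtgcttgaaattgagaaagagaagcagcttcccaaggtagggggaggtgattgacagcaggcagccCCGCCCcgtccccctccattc

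Of the motifs searched on both strands in RefSeq's windows around gene starts, CCAAT was in 37.4%, GGGCGG in 35.7% and TATAAA in 13.6% of all 32851 windows. The 38 windows matched to collagen genes held them 13, 23 and 5 times. A match is a run of letters and not evidence of a bound site.

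First, the parental line was followed from day 0 to day 4. Of the 44 collagen genes, 35 had enough counts to be tested in TX1072, and between day 0 and day 4 25 of them rose and 6 fell (edgeR quasi-likelihood test, Benjamini-Hochberg adjusted p of 0.05). Of all 19065 genes tested, 31.0% rose and 27.8% fell in the same comparison. The median log2 change of the tested collagen genes was 1.61, which was that of Col18a1, beside 0.00 for all genes. Genes that pass the count filter only through the day on which they are high had to differ, so these counts describe the tested genes and not the whole family. The 9 genes left out as too low were Col4a3, Col4a4, Col6a6, Col8a1, Col9a1, Col10a1, Col15a1, Col19a1 and Col28a1.

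A single gene accounted for most of the collagen counts. Col18a1, whose chain sits in basement membranes and is the source of endostatin, took up 56.2% of summed collagen CPM in undifferentiated cells, 86.1% by day 2 and 60.2% by day 4. Its libraries held 179, 209 and 159 CPM at day 0, 679, 640 and 677 CPM at day 2 and 448, 630 and 595 CPM at day 4. The gain came almost at once, with a log2 change of 1.45 ± 0.14 (SE) by day 1 (adjusted p = 8.39e-08), and no change passed the test from day 2 to day 3 or from day 3 to day 4. Per kilobase of exon it also led the order, at 26.0 ± 3.59 CPM per kb at day 0 (SD, n = 3) before Col4a1 at 6.59 ± 1.24, Col9a2 at 3.38 ± 0.306 and Col4a2 at 2.68 ± 0.279, where the last 2 lay nearest to each other. At day 4 the order per kilobase was Col18a1 (79.4 ± 13.7), Col4a1 (19.6 ± 0.846), Col4a2 (9.92 ± 0.684), Col5a1 (3.5 ± 0.343) and then Col5a2 (2.52 ± 0.174) and Col2a1 (2.39 ± 0.699), which did not differ beyond their spread.

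**Figure D1:**
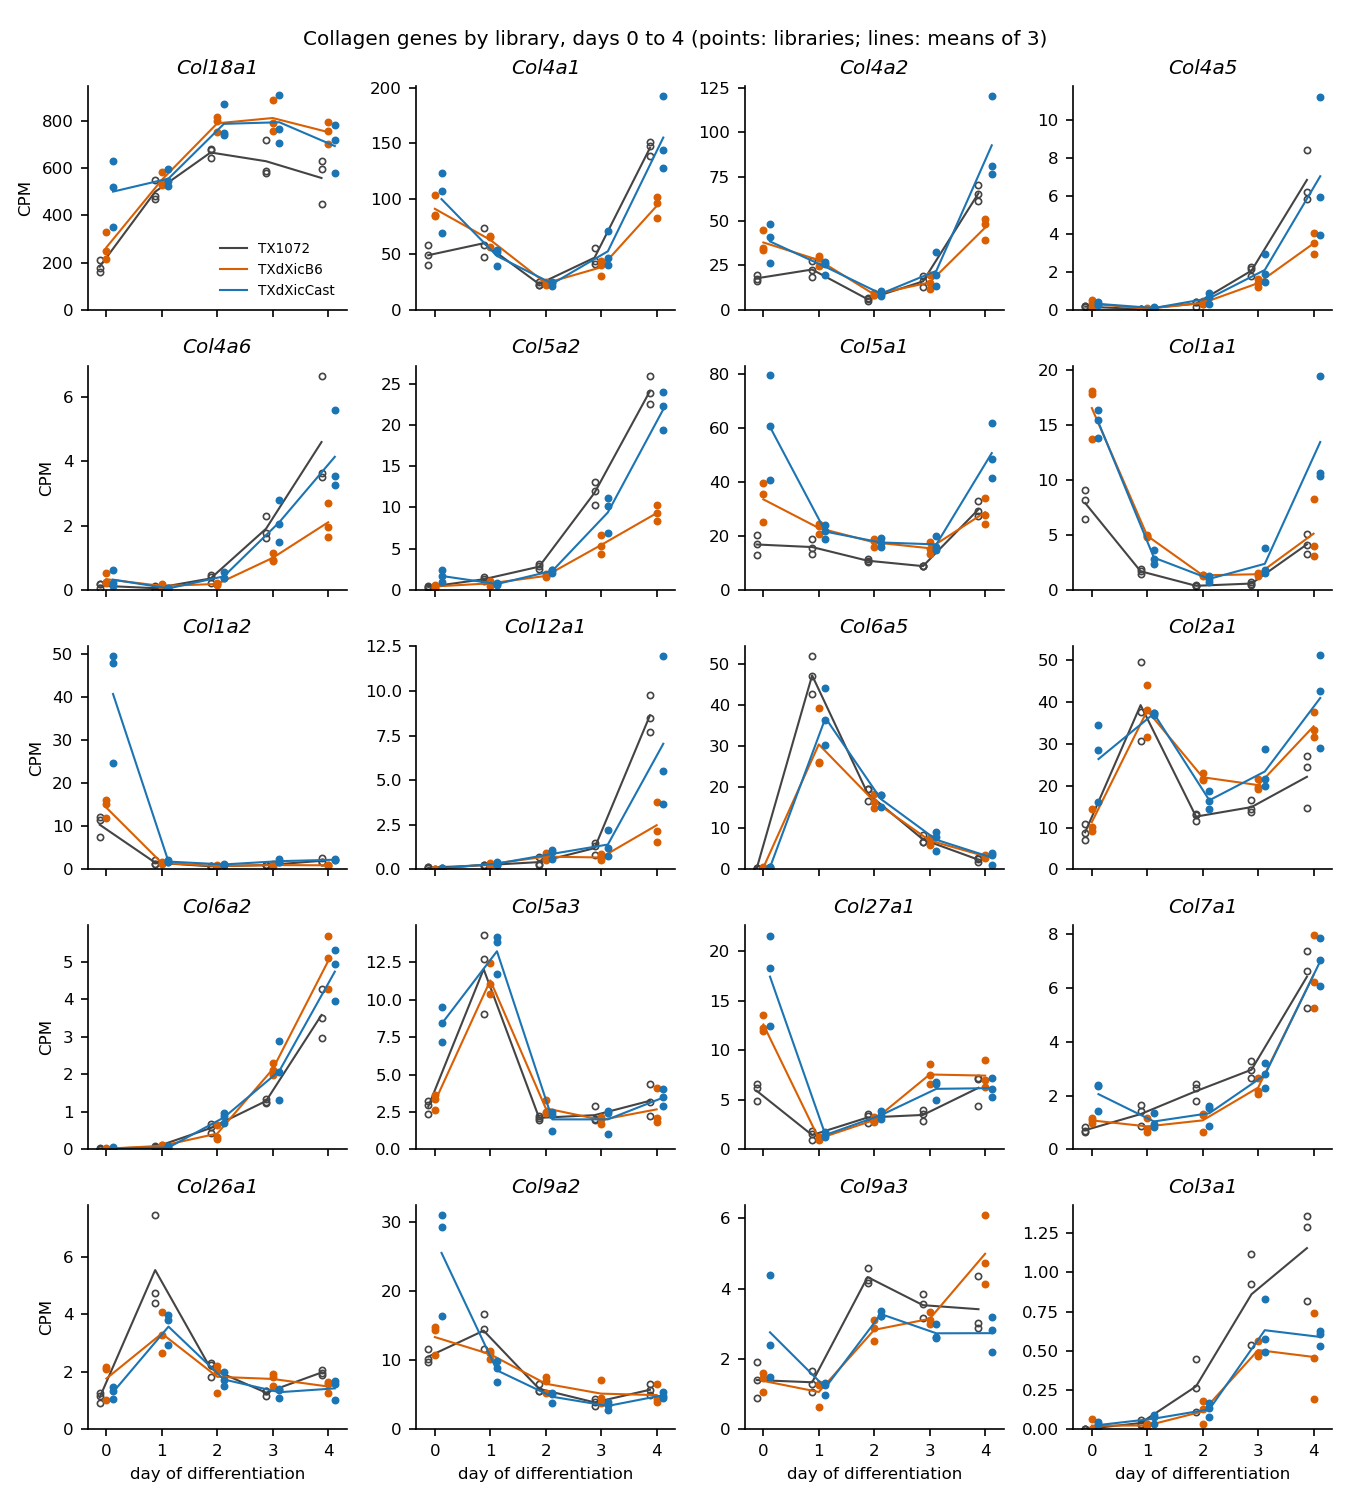
CPM of 20 collagen genes in every bulk library (vertical axes, linear, different scale for each gene) against day of differentiation. Points are libraries and lines join means of 3 replicates, for TX1072 (open, grey), TXdXicB6 (orange) and TXdXicCast (blue), where TX1072 was prepared with another kit. Col18a1 climbs within a day, Col4a1 and Col4a2 dip at day 2 before they rise, Col6a5 and Col5a3 peak at day 1, and the blue points of Col5a2 lie above the orange ones at day 4.

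The type IV genes had the most uniform time course at the end of the series. Col4a1 had 49.0, 58.6 and 40.1 CPM at day 0, fell to 22.2, 22.8 and 24.9 CPM at day 2 and reached 139, 151 and 148 CPM at day 4. Col4a2 had 16.2, 19.8 and 17.3 CPM at day 0, 5.25, 6.29 and 6.44 CPM at day 2 and 61.5, 70.5 and 65.2 CPM at day 4. For both genes the libraries of days 0, 2 and 4 did not overlap. The log2 change from day 1 to day 2 was -1.37 ± 0.16 for Col4a1 and -1.92 ± 0.16 for Col4a2, and that from day 3 to day 4 was 1.64 ± 0.16 and 2.04 ± 0.16 (SE; adjusted p = 1.62e-06, 2.98e-08, 8.27e-07 and 6.4e-08 by edgeR).

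The X-linked type IV genes, which encode chains of specialised basement membranes, were rarely counted before day 3. Col4a5 had 0.187, 0.185 and 0.132 CPM at day 0, 2.28, 2.15 and 1.77 CPM at day 3 and 8.45, 6.23 and 5.86 CPM at day 4. Col4a6 had 0.160, 0.0369 and 0.175 CPM at day 0, 1.78, 2.31 and 1.61 CPM at day 3 and 6.65, 3.64 and 3.53 CPM at day 4. Both rose from day 2 to day 3 and again from day 3 to day 4, and so did Col4a1 and Col4a2, which makes 4 of 4 tested type IV genes higher at each of these steps. The background for these steps was 13.0% of all genes higher from day 2 to day 3 and 16.6% from day 3 to day 4. Col4a5 and Col4a6, at means of 0.327 and 0.349 CPM at day 2, passed the count filter through the later days. Col4a3 and Col4a4 were left out as too low, so the 4 of 4 was partly set by the filter.

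Over the 15 TX1072 libraries the gene whose log2 CPM followed Col4a1 most closely was Col4a2 (Pearson's r = 0.993, of 10929 genes compared), as a description over libraries that share their days. Among the next were Myo18a (0.978) and Myo1c (0.969), which encode myosins, and Ahnak (0.967).

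The fibrillar genes did not move together. All 11 could be tested, and from day 0 to day 4 6 rose and 2 fell. Col1a1 and Col1a2, whose chains join in collagen I, were the 2 that fell. Col1a1 had 6.47, 8.16 and 9.03 CPM at day 0, 0.335, 0.377 and 0.333 CPM at day 2 and 3.26, 5.03 and 4.08 CPM at day 4, so that it had regained part of its level. Col1a2 had 7.43, 12.2 and 11.4 CPM at day 0, 0.819, 0.579 and 0.778 CPM at day 2 and 1.70, 1.71 and 2.58 CPM at day 4. The log2 change from day 3 to day 4 was 2.86 ± 0.25 for Col1a1 (adjusted p = 2.26e-07) and 0.99 ± 0.27 for Col1a2 (adjusted p = 0.0117), and the 2 changes were not tested against each other.

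Collagen V, which is built into fibrils of collagen I and limits their width, showed the opposite order of its chains. Col5a2 rose at each step, from 0.481, 0.222 and 0.263 CPM at day 0 to 10.3, 13.1 and 11.97 CPM at day 3 and 23.9, 22.6 and 26.0 CPM at day 4. Col5a1 started higher, at 13.0, 20.2 and 17.0 CPM, had 8.77, 8.76 and 8.59 CPM at day 3 and then rose to 27.2, 32.9 and 29.1 CPM. Col5a3 peaked at day 1 with 9.08, 14.3 and 12.8 CPM and was back at 2.24, 4.37 and 3.13 CPM at day 4, beside 2.35, 3.25 and 2.94 CPM at day 0. Its change from day 0 to day 4 did not pass the test.

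Among the other fibrillar genes, Col2a1, the collagen of cartilage and of the embryonic notochord, had a like peak. It had 6.95, 10.9 and 8.72 CPM at day 0, 30.6, 49.5 and 37.5 CPM at day 1 and 14.8, 24.6 and 27.0 CPM at day 4. Col27a1 had 4.87, 6.61 and 6.22 CPM at day 0, 0.979, 1.50 and 1.83 CPM at day 1 and 4.35, 7.18 and 7.09 CPM at day 4, so that day 1 was its low point. Col3a1, which goes with collagen I in soft tissues, had no count at day 0 and 0.815, 1.36 and 1.29 CPM at day 4, which was at least 10.7-fold higher than a floor of 3 counts per library. Col11a1 and Col24a1 also rose, and Col11a2 was not called.

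Collagen VI forms beaded filaments near the cell surface. Its gene Col6a5 had the largest pulse of the family, with 0.214, 0.259 and 0.263 CPM at day 0, 51.8, 47.0 and 42.7 CPM at day 1, 19.5, 16.5 and 19.5 CPM at day 2 and 1.73, 2.56 and 2.79 CPM at day 4. Its log2 change was 7.59 ± 0.23 up to day 1 (adjusted p = 4.37e-14), and it fell at each of the 3 later steps. Col6a2 went the other way, from 0, 0 and 0.0438 CPM at day 0 to 1.247, 1.344 and 1.272 CPM at day 3 and 3.497, 4.271 and 2.976 CPM at day 4. Col6a1 and Col6a4 rose and Col6a3 fell from day 0 to day 4, and Col6a6 was too low to test.

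FACIT collagens decorate the surface of fibrils. Col12a1 had 0.0535, 0.111 and 0.132 CPM at day 0, 1.32, 0.806 and 1.46 CPM at day 3 and 8.49, 7.69 and 9.76 CPM at day 4, and the last step had a log2 change of 2.82 ± 0.28 (adjusted p = 1.05e-06). Col9a2 and Col9a3, whose chains join in collagen IX, changed in opposite directions. Col9a2 had 10.2, 9.71 and 11.5 CPM at day 0 and 4.89, 6.49 and 5.68 CPM at day 4. Col9a3 had 1.90, 0.886 and 1.40 CPM at day 0 and 4.35, 3.01 and 2.88 CPM at day 4. Of the 7 tested FACIT genes 5 rose, Col9a2 fell, and Col20a1 was not called.

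Of the remaining groups, Col7a1, the anchoring fibril of the skin, rose from 0.668, 0.628 and 0.833 CPM to 5.26, 6.64 and 7.36 CPM. Col26a1 peaked at day 1 with 4.75, 7.48 and 4.41 CPM, between 1.26, 0.923 and 1.14 CPM at day 0 and 1.90, 1.96 and 2.06 CPM at day 4. Of the 4 transmembrane genes, Col23a1 and Col25a1 rose and Col13a1 and Col17a1 fell. Col8a2, the only short chain gene tested, rose.

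Step by step, 14 of the 35 tested genes rose and 6 fell from day 0 to day 1, when 25.7% and 20.8% of all genes did. From day 1 to day 2, 13 rose and 15 fell (19.0% and 19.7% of all genes), but only 6 rose when the libraries of these days alone were fitted. From day 2 to day 3, 11 rose and 5 fell (13.0% and 13.5%), and 3 fell without the filter on low counts. From day 3 to day 4, 16 rose and 2 fell (16.6% and 10.6%), and the 2 that fell were Col6a5 and Col17a1. The share of collagen genes that rose lay farthest above the background at this last of the 4 steps. The limit of the count filter given above holds for these counts too.

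Genes that act on collagen chains were followed beside them, from lists chosen with earlier results known. Of 20 genes of chain modification and folding, 8 rose and 6 fell from day 0 to day 4, which is 40.0% and 30.0%, near the 31.0% and 27.8% of all genes that did. The same shares of all genes are the background of the other lists. P3h2, a prolyl hydroxylase of basement membrane collagen, went from 0.0235 ± 0.0221 to 4.60 ± 0.382 CPM, and Crtap, a partner of the prolyl hydroxylase of fibrillar collagen, fell from 122 ± 15.4 to 40.8 ± 6.62 CPM (SD, n = 3). Of 12 genes of procollagen processing and crosslinking, 8 rose, led by the lysyl oxidase Lox (0.0246 ± 0.0426 to 11.1 ± 4.47 CPM), and 3 fell, led by the proteinase enhancer Pcolce2 (80.4 ± 11.9 to 14.6 ± 1.94 CPM).

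Of 16 partners in the basement membrane, 8 rose and 6 fell. Pxdn, the peroxidase that crosslinks collagen IV, rose from 7.51 ± 1.71 to 152 ± 3.24 CPM, whereas the laminin chain Lama1 fell from 208 ± 37.9 to 8.80 ± 0.525 CPM (SD, n = 3). Of 8 tested fibril partners 7 rose, led by Thbs1 (1.43 ± 0.738 to 126 ± 19.6 CPM), and 1 fell, fibronectin Fn1 (650 ± 198 to 155 ± 20.3 CPM). Of 6 tested collagen receptors, 4 rose, led by the endocytic receptor Mrc2 (0.928 ± 0.433 to 19.1 ± 2.56 CPM), and 2 fell, led by the receptor kinase Ddr2 (16.1 ± 1.80 to 0.160 ± 0.0606 CPM). Of 6 tested turnover genes 5 rose, led by the metalloproteinase inhibitor Timp2 (0.484 ± 0.149 to 13.1 ± 0.457 CPM), and 1 fell, its relative Timp1 (45.8 ± 2.26 to 10.7 ± 2.00 CPM). Markers of other cell types moved in the same interval. Those that rose were 8 of 9 extraembryonic endoderm markers (5.83 to 8.07 CPM at day 0 and 46.4 to 66.7 CPM at day 4 in sum) and 5 of 6 tested mesoderm markers (12.6 to 16.5 and 154 to 340 CPM), 3 of 4 neural markers and, of 3 tested trophoblast markers, Krt7. The neural marker Sox1 fell by 0.96 on the log2 scale (edgeR, adjusted p = 0.0449), as did the trophoblast markers Cdx2 (10.3 ± 5.53 to 2.11 ± 0.457 CPM) and Tfap2c (62.4 ± 11.2 to 35.2 ± 1.18 CPM). The part of these markers in the collagen changes was not tested.

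Next, the deletion lines were compared with each other, which asks whether collagen genes differ between clones that can inactivate only the Cast X (TXdXicB6) or only the B6 X (TXdXicCast). In these lines 37 collagen genes could be tested. From day 1 to day 4, 20 rose and 10 fell in TXdXicB6, when 27.9% and 28.1% of all genes did, and 21 rose and 10 fell in TXdXicCast (29.7% and 29.1%). All 4 tested type IV genes rose in each line, where Col4a5 and Col4a6 were again rarely counted at day 1. The limit of the count filter given for TX1072 holds for these counts too.

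At day 1, 0 genes differed between the lines by edgeR and 0 by DESeq2, with 4 at an unadjusted p under 0.05 and 0.217% of all genes higher and 0.167% lower in TXdXicCast. With the replicate number as a block 1 was lower, the FACIT gene Col20a1, by a log2 change of -1.08 (adjusted p = 0.0489). The block also raised the lower genes among all tested from 33 to 61. At day 2 Col20a1 was called in the fit without the block as well, at 0.375 ± 0.164 CPM in TXdXicCast and 1.336 ± 0.417 CPM in TXdXicB6 (SD, n = 3; log2 change -1.85 ± 0.42 (SE), adjusted p = 0.0462), and no other collagen gene was, with 0.207% and 0.146% of all genes called. That call was lost when any library of either group other than replicate 3 of TXdXicB6 was left out.

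At day 3, 0 genes passed the edgeR test, with 9 at an unadjusted p under 0.05, when 0.802% of all genes were higher and 0.378% lower in TXdXicCast. The genes nearest to the threshold were Col1a2, with 1.69, 1.71 and 2.36 CPM in TXdXicCast and 1.24, 0.987 and 0.800 CPM in TXdXicB6 (log2 difference 0.91, adjusted p = 0.082), and Col5a2, with 10.2, 6.84 and 11.1 CPM and 6.69, 4.32 and 5.32 CPM (0.80, adjusted p = 0.088). For both genes all 3 TXdXicCast libraries lay above all 3 of TXdXicB6. Both were called with the replicate number as a block, at 0.86 (adjusted p = 0.0349) and 0.80 (adjusted p = 0.0191), and by DESeq2. Of all genes, 159 were higher in the main fit, 266 with the block and 351 by DESeq2.

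The type IV genes were not called at day 3 by edgeR. Col4a1 had 46.8, 40.0 and 71.5 CPM in TXdXicCast and 40.6, 30.3 and 44.3 CPM in TXdXicB6 (log2 difference 0.47, adjusted p = 0.362), and Col4a2 had 19.8, 13.7 and 32.3 CPM and 15.2, 11.6 and 19.4 CPM (0.53, adjusted p = 0.426). In both genes the groups overlapped and the highest library was replicate 3 of TXdXicCast. With no filter on low counts both were called at about the same log2 differences (Col4a1 0.47, adjusted p = 0.0295, and Col4a2 0.53, adjusted p = 0.019). Without that filter 359 of all genes were higher, against 159 with it. Among the genes that work with collagen, the crosslinking enzyme Loxl4 (2.80 ± 1.54 and 0.914 ± 0.362 CPM), Thbs1 (80.1 ± 50.2 and 32.7 ± 2.96 CPM) and the integrin chain Itgb1 (347 ± 49.4 and 258 ± 7.21 CPM) were higher in TXdXicCast at day 3 (SD, n = 3). Without replicate 3 of TXdXicCast, Loxl4 was still called (log2 difference 1.21, adjusted p = 0.0407), while Thbs1 (0.67, adjusted p = 0.167) and Itgb1 (0.32, adjusted p = 0.505) were not, and Itgb1 also lost its call without any one TXdXicB6 library. None of these 3 passed in edgeR when only the day 3 libraries were fitted (adjusted p between 0.19 and 0.22). In that fit 0 of all genes were called higher and 0 lower, so it says nothing about these 3 in particular.

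At day 4, 7 of the 37 genes were higher in TXdXicCast and 1 was lower, against 4.01% and 1.55% of all genes. The 7 comprised 4 fibrillar genes (Col1a1 on chr11:94936224-94953042, Col1a2 on chr6:4504814-4541544, Col5a1 on chr2:27886425-28039514 and Col5a2 on chr1:45374321-45503282, GRCm38), 2 type IV genes (Col4a1 and Col4a2) and the FACIT gene Col12a1. The median log2 difference was 0.19 for the tested collagen genes and 0.00 for all genes, so that most of the family differed little between the lines. Without replicate 3 of TXdXicCast only Col1a2 and Col5a2 passed, and without replicate 1 of TXdXicB6 only these and Col1a1 did, so the count rests on single libraries. The calls over all genes fell as well, from 794 higher and 308 lower with all libraries. They were 277 and 57 without that TXdXicCast replicate, and 496 and 132 without that TXdXicB6 replicate. When only the day 4 libraries were fitted, Col1a1 (adjusted p = 0.081), Col12a1 (adjusted p = 0.114) and Col9a3 (adjusted p = 0.0809) lost their calls. In that fit 405 of all genes were higher and 93 lower.

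The pair that kept its call under every omission was as follows. Col5a2 had 22.4, 19.4 and 24.1 CPM in TXdXicCast and 10.3, 9.29 and 8.31 CPM in TXdXicB6. Its log2 difference was 1.24 ± 0.22 (SE; adjusted p = 0.00103), and 1.18 without replicate 3 of TXdXicCast (adjusted p = 0.0114). Col1a2 had 2.21, 2.22 and 2.33 CPM in TXdXicCast and 1.00, 1.04 and 0.838 CPM in TXdXicB6, a log2 difference of 1.21 ± 0.25 (adjusted p = 0.00369) and 1.20 without that replicate (adjusted p = 0.0227). For both genes the groups did not overlap and the spread within a line was small beside the difference.

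For the other 5 genes, replicate 3 of TXdXicCast held the highest value. Col1a1 had 10.3, 10.6 and 19.4 CPM in TXdXicCast and 4.02, 8.23 and 3.05 CPM in TXdXicB6, and its log2 difference went from 1.39 ± 0.29 (adjusted p = 0.00371) to 1.04 without that replicate (adjusted p = 0.0724). Col5a1 had 48.4, 41.5 and 61.9 CPM and 24.4, 34.1 and 27.6 CPM, with 0.82 ± 0.19 (adjusted p = 0.0089) and 0.66 without it (adjusted p = 0.116). Col4a1 had 128, 144 and 193 CPM and 83.0, 102 and 96.0 CPM, with 0.73 ± 0.19 (adjusted p = 0.0218) and 0.55 without it (adjusted p = 0.233). In each of these genes the groups did not overlap, and the difference kept its sign without the replicate.

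Col4a2 had 76.8, 80.9 and 120 CPM in TXdXicCast and 39.1, 48.5 and 51.4 CPM in TXdXicB6, with a log2 difference of 1.00 ± 0.23 (adjusted p = 0.00902) and 0.78 without replicate 3 (adjusted p = 0.119). Col12a1 had 5.54, 3.65 and 11.9 CPM and 1.53, 3.77 and 2.13 CPM, with 1.51 ± 0.37 (adjusted p = 0.0124) and 0.91 without it (adjusted p = 0.295). The groups overlapped only for Col12a1, where the lowest TXdXicCast library lay under the highest of TXdXicB6. The gene that was lower, Col9a3, had 3.19, 2.82 and 2.18 CPM in TXdXicCast and 4.14, 4.73 and 6.10 CPM in TXdXicB6 (-0.86 ± 0.26, adjusted p = 0.0458), and lost its call without any one of the 6 libraries (-0.71 and adjusted p = 0.322 without replicate 3 of TXdXicCast). Of its exon bases 6.07% are shared with the gene Tcfl5 on the opposite strand, and whether the counting of the bulk reads used strand is not given in the sources used here.

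**Figure D2:**
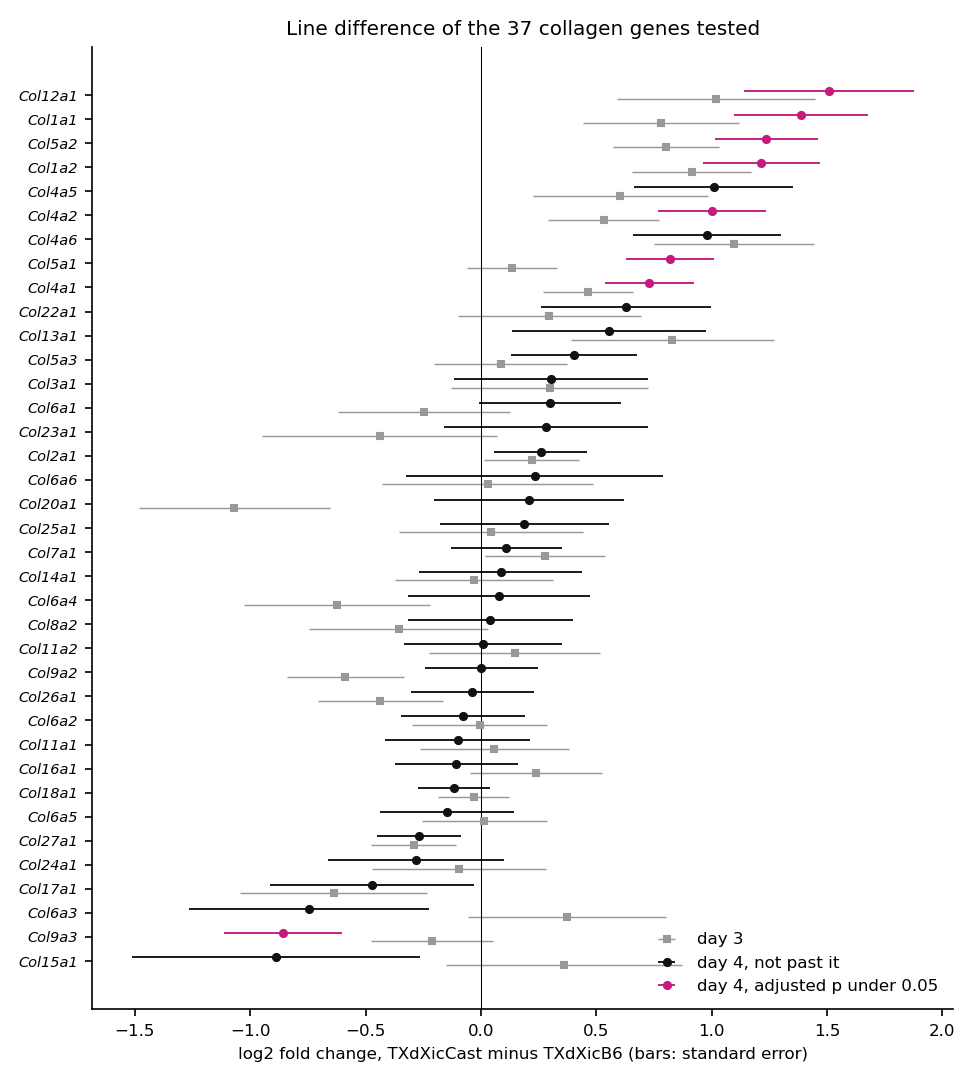
Log2 difference TXdXicCast minus TXdXicB6 (horizontal axis) of the 37 collagen genes tested, at day 3 (grey squares) and day 4 (circles), with bars for the standard error. Magenta circles passed the adjusted p at day 4, 7 to the right of 0 and Col9a3 to the left, and genes are ordered by their day 4 value.

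The X-linked type IV genes stood just outside. Col4a6 had 3.56, 3.26 and 5.62 CPM in TXdXicCast and 1.66, 2.71 and 1.94 CPM in TXdXicB6 (log2 difference 0.98 ± 0.32, adjusted p = 0.0725). Col4a5 had 3.94, 5.95 and 11.2 CPM and 2.96, 3.50 and 4.04 CPM (1.01 ± 0.35, adjusted p = 0.089). Both passed with the replicate number as a block, which raised the count from 7 to 9 genes, and that of all genes from 794 to 1092. Col18a1, the most abundant collagen transcript, had 781, 719 and 578 CPM in TXdXicCast and 796, 757 and 702 CPM in TXdXicB6, a log2 difference of -0.12 ± 0.16 (adjusted p = 0.755) with overlapping groups. No type VI gene passed.

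Whether the lines differed in their change from day 1 to day 4 was tested directly. This difference of changes passed for 1 gene, Col1a1, at 2.13 ± 0.42 on the log2 scale (adjusted p = 0.0155), when 0.656% of all genes were higher and 0.0656% lower in it. At day 1 Col1a1 had 3.60, 2.76 and 2.37 CPM in TXdXicCast and 4.92, 5.01 and 4.75 CPM in TXdXicB6, so that the order of the lines was the reverse of that at day 4. The call was lost without replicate 3 of TXdXicB6 at day 4 (1.88, adjusted p = 0.0521), of TXdXicCast at day 1 (2.00, adjusted p = 0.0703) or of TXdXicCast at day 4 (1.77, adjusted p = 0.0823). It was also lost when only the libraries of days 1 and 4 were fitted (2.13, adjusted p = 0.0618), where Col4a1 passed in its place (1.11, adjusted p = 0.0457). With the replicate number as a block 4 genes passed, Col1a1 (2.12, adjusted p = 0.00792), Col4a1 (1.09, adjusted p = 0.0255), Col4a2 (1.18, adjusted p = 0.0382) and Col5a2 (1.39, adjusted p = 0.0438). The block raised the higher genes among all tested from 130 to 230.

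Genes that work with collagen differed little between the lines. The background at day 4 was 4.01% of all genes tested higher and 1.55% lower in TXdXicCast. Of 20 modification and folding genes at day 4, the collagen chaperone Serpinh1 (185 ± 33.5 CPM in TXdXicCast and 117 ± 9.61 in TXdXicB6) and the matrix protein Sparc (381 ± 38.8 and 242 ± 35.3) were higher and P3h3 (2.10 ± 0.283 and 3.23 ± 0.579) was lower (SD, n = 3). Of 12 processing and crosslinking genes Lox was higher (8.93 ± 5.04 and 3.00 ± 0.455 CPM), and among the 16 basement membrane partners the network linker Nid1 (34.9 ± 4.95 and 19.4 ± 1.67) and the laminin chain Lamb3 (8.50 ± 0.698 and 5.04 ± 0.586) were higher too. Among 7 tested fibril partners Bgn was higher (5.94 ± 2.25 and 2.02 ± 0.65 CPM) and Fbn2 lower (4.58 ± 0.872 and 7.53 ± 2.16), among 7 tested receptors the integrin chain Itgb1 was higher (458 ± 25.8 and 338 ± 12.8), and 0 of 7 tested turnover genes passed by edgeR, with 2 at an unadjusted p under 0.05. Without replicate 3 of TXdXicCast, Sparc (log2 difference 0.58, adjusted p = 0.0134), Nid1 (0.74, adjusted p = 0.0321) and Bgn (1.19, adjusted p = 0.0279) were still called. Serpinh1, P3h3, Lox (1.05, adjusted p = 0.146), Lamb3, Fbn2 and Itgb1 were not, with adjusted p between 0.0765 and 0.209.

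Some markers of cell identity were called between the lines at day 4, in both directions, and most of these calls rested on replicate 3 of TXdXicCast. The background was 4.01% of all genes tested higher and 1.55% lower in TXdXicCast. Of 5 formative epiblast markers Dnmt3b (587 ± 197 CPM in TXdXicCast and 947 ± 164 in TXdXicB6) and Otx2 (49.1 ± 8.25 and 71.2 ± 8.02) were lower. Of 8 stem cell markers Pou5f1 (503 ± 80.6 and 681 ± 33.6 CPM) was lower and Tbx3 (26.3 ± 6.74 and 12.8 ± 2.73) and Tfcp2l1 (119 ± 5.32 and 81.4 ± 9.29) were higher (SD, n = 3). Of 9 extraembryonic endoderm markers Dab2 (40.5 ± 9.04 and 25.5 ± 1.79 CPM) and Gata6 (1.36 ± 1.47 and 0.253 ± 0.101) were higher, and their sum was 54.9, 47.4 and 82.8 CPM in TXdXicCast and 41.2, 44.7 and 45.4 CPM in TXdXicB6, with Dab2 the most abundant. Krt7, 1 of 4 trophoblast markers, was higher (59.2 ± 14.9 and 25.1 ± 0.951 CPM), as was Pdgfrb, 1 of 3 tested fibroblast markers (2.15 ± 0.627 and 1.09 ± 0.255), whereas 0 of 6 tested mesoderm markers passed by edgeR, with 4 at an unadjusted p under 0.05, and 0 of 4 neural markers, with 1. The fibroblast marker Dpt was at 0 in all 6 libraries. Of the markers named here as higher or lower, only Krt7 was still called without replicate 3 of TXdXicCast (log2 difference 1.02, adjusted p = 0.0369), and Gata6, for example, went from 2.37 to 1.01 (adjusted p = 0.495). The part of these markers in the collagen differences was not tested.

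Because the lines are F1 hybrids, part of the counts could be assigned to an allele. In TX1072, 29 collagen genes had enough allele-specific counts for a test, and over all autosomal genes the Cast share was 48.59 to 49.45% in the bulk libraries. Averaged over days 0 to 4, 8 were counted more from the Cast allele and 10 more from the B6 allele, against 25.8% and 37.8% of all genes tested. Col18a1, the collagen gene with the most allele-specific counts, was near balance with a Cast share of 44.3 ± 0.702% at day 0 and 46.6 ± 1.17% at day 4 (SD, n = 3), a small but precise imbalance (average log2 ratio -0.28 ± 0.02 (SE), adjusted p = 1.82e-20). Col6a5 was counted mostly from Cast at its peak, with 83.9 ± 1.45% at day 1.

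The ratio of the alleles changed from day 0 to day 4 in 9 genes, 3 toward Cast and 6 toward B6, when 7.72% of all genes changed toward Cast and 7.26% toward B6. The pair Col4a1 and Col4a2 changed together. The Cast share of Col4a1 fell from 77.2 ± 1.73% at day 0 to 72.6 ± 1.33%, 65.0 ± 2.03%, 63.9 ± 0.52% and 56.3 ± 3.25% on the following days (SD, n = 3; log2 change of the ratio -1.43 ± 0.12 (SE), adjusted p = 1.81e-15), with 707 to 4397 allele-specific counts per day. That of Col4a2 fell from 75.2 ± 4.37% to 55.3 ± 0.551% (-1.25 ± 0.17, adjusted p = 6.21e-08). For both genes the day 0 libraries all lay above those of day 4.

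In the deletion lines the Cast shares of this pair also fell from day 0 to day 4. The Cast share of Col4a1 went from 82.8 ± 0.569% at day 0 to 58.2 ± 1.4% at day 4 in TXdXicB6 and from 82.0 ± 1.11% to 52.8 ± 2.07% in TXdXicCast. The share of Col4a2 went from 77.3 ± 0.569% to 55.3 ± 1.05% and from 75.1 ± 3.42% to 51.3 ± 2.54% (SD, n = 3). The log2 change of the ratio of Cast to B6 counts of Col4a1 was -1.80 ± 0.10 (SE; edgeR, adjusted p = 2.94e-24) in TXdXicB6 and -2.04 ± 0.085 (adjusted p = 6.06e-32) in TXdXicCast, when 9.02% and 10.1% of all genes changed toward B6. That of Col4a2 was -1.45 ± 0.13 (adjusted p = 9.35e-15) and -1.55 ± 0.10 (adjusted p = 4.74e-21). The day 0 libraries of TXdXicCast are those with degraded RNA. These shares rest on 34 SNPs in the exons of Col4a1 and 39 in those of Col4a2.

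Among the fibrillar genes, the chains of collagen I were counted from opposite alleles at day 0. The Cast share of Col1a1 was 28.5 ± 3.56% and that of Col1a2 98.4 ± 1.51% in TX1072 (SD, n = 3), with 25 ± 9.02% and 96.5 ± 2.61% in TXdXicB6. At day 4 Col1a1 had a Cast share of 83.8 ± 10.3% (log2 change of the ratio 3.56 ± 0.55 (SE), adjusted p = 7.5e-07) and Col1a2 of 64.3 ± 20.3% (-5.09 ± 0.94, adjusted p = 3.18e-05), on 64 and 35 allele-specific counts over 3 libraries. In the deletion lines the share of Col1a1 went from 25 ± 9.02% to 69.8 ± 5.93% in TXdXicB6 and from 36.1 ± 4.82% to 86.0 ± 6.83% in TXdXicCast. The exons of Col1a1 hold only 8 SNPs, so its share rests on few positions.

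Col5a1 shifted toward B6, from a Cast share of 49.9 ± 1.96% to 29.2 ± 2.36% in TX1072 (SD, n = 3; -1.27 ± 0.22 (SE), adjusted p = 9.36e-06), and Col2a1 likewise from 24.5 ± 1.32% to 14.4 ± 3.97% (-1.01 ± 0.35, adjusted p = 0.0358). Col5a2 shifted toward Cast, to 74.2 ± 2.08% at day 4, but had only 9 allele-specific counts at day 0. Col26a1 also shifted toward Cast (5.61 ± 0.99, adjusted p = 1.25e-05) and Col6a1 toward B6 (-3.74 ± 0.93, adjusted p = 0.0022), on 44 and 46 allele-specific counts at day 0. In the deletion lines Col5a1 and Col6a1 passed in each line by edgeR, and the other genes in only 1. The change of Col26a1 was 2.42 in TXdXicB6 (adjusted p = 0.0326) and 1.64 in TXdXicCast (adjusted p = 0.0711). In the same order it was -0.59 (adjusted p = 0.219) and -0.74 (adjusted p = 0.00525) for Col2a1. For Col5a2 it was 2.88 (adjusted p = 0.101) and 3.17 (adjusted p = 5.73e-07).

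**Figure D3:**
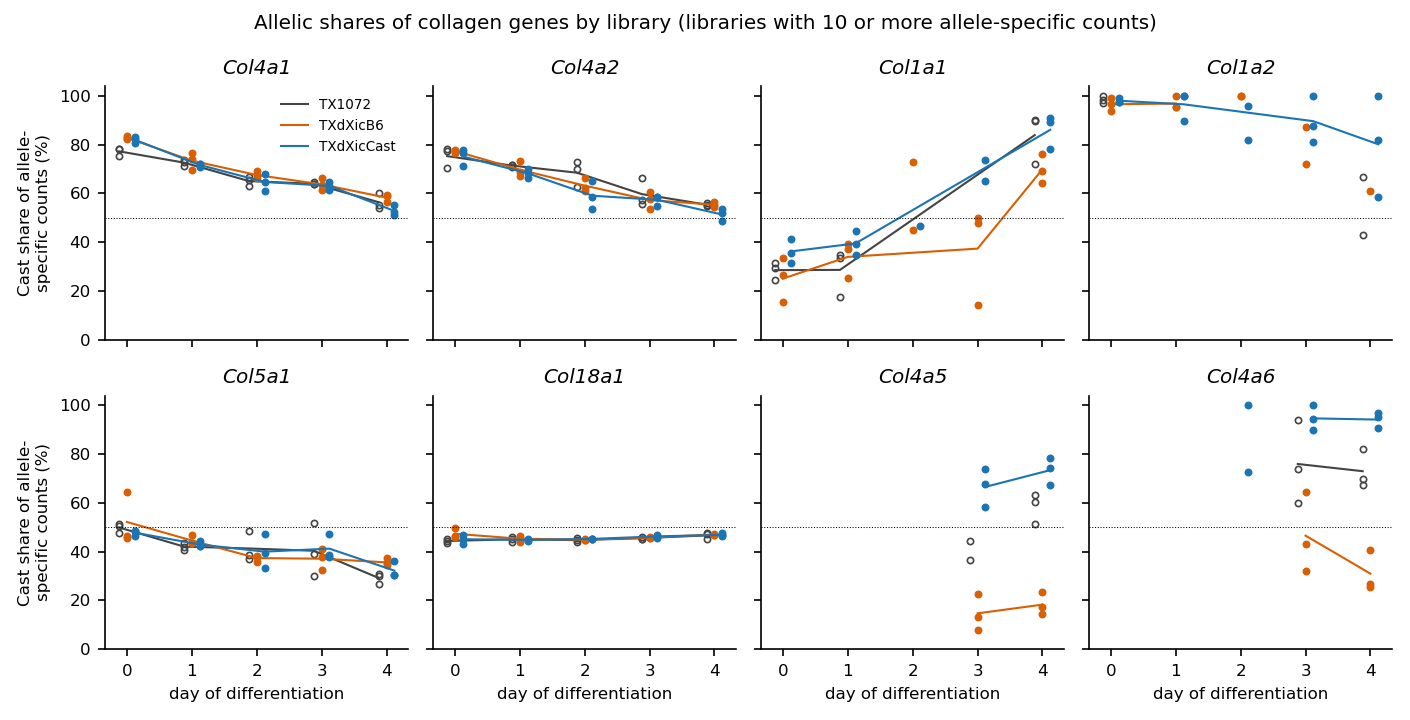
Cast share of allele-specific counts in percent (vertical axis) against day of differentiation for 8 collagen genes, in each bulk library with at least 10 allele-specific counts of the gene. Points are libraries, lines join days on which all 3 libraries passed that minimum, and the dotted line marks 50%, for TX1072 (open, grey), TXdXicB6 (orange) and TXdXicCast (blue). Col4a1 and Col4a2 decline in all 3 lines, Col18a1 stays at about 45%, and the deletion lines separate in the X-linked Col4a5 and Col4a6.

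The X-linked pair was examined in the lines in which a single X can be inactivated by Xist. At day 4 the Cast share of Col4a5 was 14.3%, 23.3% and 17.1% in TXdXicB6 and 78.5%, 74.4% and 67.3% in TXdXicCast, on 35 to 113 allele-specific counts per library. The share of Col4a6 was 40.5%, 25.4% and 26.9% in TXdXicB6 and 96.7%, 95% and 90.7% in TXdXicCast, on 26 to 120 counts. For both genes the lines did not overlap, and the share was lower in the line whose Cast X can be inactivated. The differences of the mean shares were 55.2 and 63.2 percentage points, with p = 0.1 for each by a two-sided exact permutation test, which is the smallest value that 3 against 3 can give. In TX1072, where either X can be inactivated, the shares at day 4 were 58.4 ± 6.13% for Col4a5 and 73.0 ± 8% for Col4a6 (SD, n = 3).

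A change of these shares from day 0 could hardly be measured, since both genes had 2 to 12 allele-specific counts per line at day 0 over 3 libraries. Col4a6 changed toward B6 in TXdXicB6 (log2 change of the ratio -6.80 ± 1.6 (SE), adjusted p = 0.000849, when 9.02% of all genes changed toward B6 and 7.24% toward Cast), from a day 0 at which all 12 counts were of Cast. Without replicate 2 its call was lost (-6.71, adjusted p = 0.0619 by edgeR). Col4a5 did not pass there (-1.27 ± 2.43, adjusted p = 0.831), nor did either gene in TXdXicCast (Col4a5 2.10 ± 1.21, adjusted p = 0.237, and Col4a6 1.85 ± 1.73, adjusted p = 0.526, when 11.5% of all genes changed toward Cast and 10.1% toward B6). Without replicate 3, Col4a5 passed in TXdXicCast (5.95, adjusted p = 0.0492 by edgeR). At day 3 the order of the lines was the same as at day 4, with 14.7 ± 7.44% and 66.5 ± 7.76% for Col4a5 and 46.5 ± 16.4% and 94.6 ± 5.16% for Col4a6 in TXdXicB6 and TXdXicCast (SD, n = 3).

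Finally, single TX1072 cells show how the transcripts were spread over cells. The retained cells numbered 277, 325, 341, 257 and 272 at days 0 to 4, with medians of 138565, 124651, 125591, 130377 and 171158 unique molecular identifiers (UMIs) per cell. Cells of 1 culture are not replicates, so levels are given with intervals for counting error only and without a test. Summed collagen UMIs, scaled like the bulk counts to CPM of all UMIs, were 209.9, 474.1, 420.2, 484.7 and 537.8 on days 0 to 4. Col18a1 was in 89.5% of the cells at day 0 (exact 95% interval 85.3 to 92.9%) and in 98.5 to 100% at later days, at 107 CPM (104 to 110) and 323 CPM (318 to 328) at days 0 and 4.

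Col4a1 was detected in fewer cells and followed the bulk time course. On days 0 to 4 it was in 50.2%, 51.4%, 26.4%, 41.2% and 65.8% of cells, with an interval of 59.8 to 71.4% on the last day. After each cell was thinned to 40000 UMIs, which left out 0 cells, the shares were 36.5%, 40.3%, 17.9%, 32.3% and 52.6% in the same order. Col4a2 was in 22.4%, 18.5%, 6.16%, 14.4% and 31.6% of cells in the same order. Col4a2 was in 28.1%, 22.8%, 5.56%, 21.7% and 39.7% of the cells with Col4a1 on days 0 to 4, and in 16.7%, 13.9%, 6.38%, 9.27% and 16.1% of those without it, so that the order was reversed at day 2, when 5 cells had both. At day 4 cells with Col4a1 had a median of 175887 UMIs and cells without it 161979.

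Col5a2, Col4a5 and Col1a1 had a UMI in a minority of cells on each day given here. Col5a2 had 0 UMIs in 277 cells at day 0, which allows a share of up to 1.32% of cells with a UMI, and was in 10.1% of cells at day 3 and 18.4% at day 4 (14.0 to 23.5%). Col4a5 had 0 UMIs at days 0 and 1 and was in 8.82% of cells at day 4 (5.74 to 12.8%). Col1a1 was in 32.5% of cells before differentiation, in 1.47% by day 2 and in 9.56% by day 4, when 192 UMIs came from 26 cells and 47 of them from 1 cell. These shares are of cells with a UMI and not of cells that express the gene, and the background from free RNA was not measured here, since cells of a second type were not analysed.

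The pulse of day 1 was broad. Col6a5 went from 0 UMIs in 277 cells at day 0 to 51.4% of cells at day 1 (45.8 to 56.9%), then to 19.6%, 9.34% and 3.68% on the following days. Col2a1 was in 12.6% of undifferentiated cells, in 57.2% a day later (51.7 to 62.7%) and then in 19.6%, 21.8% and 22.8%. Unspliced transcripts made up 33.9% of the spliced and unspliced counts of Col6a5 at day 1 and 1.2% of those of Col2a1, beside 13.3% over all genes. Over all genes the share was 10.7 to 11.7% on the other days. By the labels, only the single cells of day 1 have added RapidRun libraries, a mode with a shorter cDNA read in the study's methods. What this contributes to the values of day 1 was not tested. For Col1a1 both the spliced and the unspliced table list 0 at days 1 to 4, although the gene had UMIs in those cells, so no share is given.

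**Figure D4:**
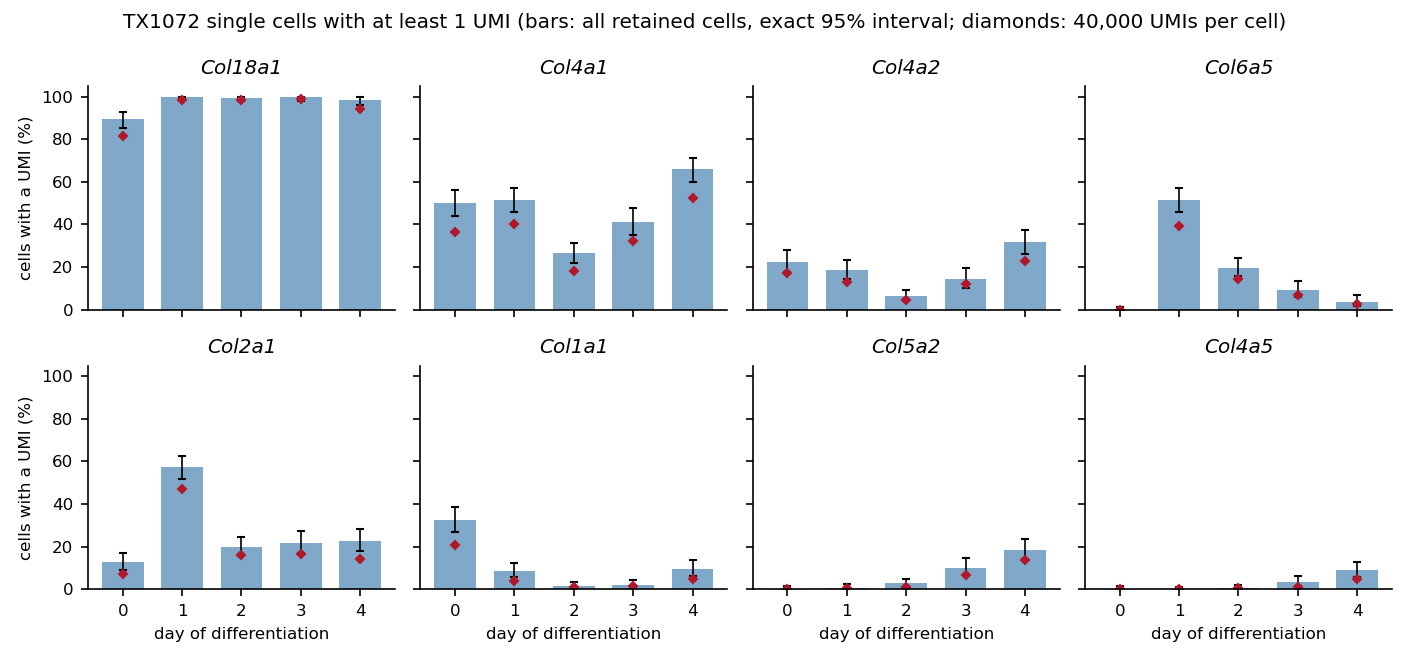
Share of retained TX1072 cells with at least 1 UMI of the gene (vertical axis, percent) at days 0 to 4, for 8 collagen genes. Bars are all retained cells with exact 95% intervals and diamonds are the same cells thinned to 40000 UMIs each, which lowers the shares but keeps the order of the days for Col4a1. Col6a5 and Col2a1 are highest at day 1, and Col5a2 and Col4a5 are highest at day 4.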

How the data were processed

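Per the study's methods, the authors aligned the bulk reads with STAR to a mm10 genome masked at the sites that differ between B6 and Cast, and the deposited values are raw counts of uniquely aligned reads that overlap exons per gene, with further count tables for reads that SNPsplit assigned to an allele. The deposited single-cell values are UMI counts per gene and cell, and the cells analysed are the 1472 that the study retained of 2000 capture sites. The single-cell protocol was strand-specific, whereas for the bulk libraries whether counting used strand is not given in the sources used here.

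Counts were scaled by TMM on autosomal genes and tested with edgeR 4.0.16 (quasi-likelihood, Benjamini-Hochberg adjustment over all genes tested, R 4.3.3), with one fit per table over all its groups. Allele ratios were tested in edgeR with the library as a block. CPM are relative to the effective library size. Collagen genes that reached a group mean of 5 CPM or were called between the lines at day 3 or 4 were described individually, with Col4a6, Col3a1 and Col20a1 added after their values were seen. Of each list of other genes, the called genes with the largest increase and decrease were named by rule, and further called genes after their values were seen, because there were few. Some genes that these rules select are not reported here. Likeness to Col4a1 used log2(CPM + 1). Intervals for cells are exact (Clopper-Pearson or Poisson, 95%) and cover counting error only. Alternatives were DESeq2 1.42.0, size factors from DESeq2 or from all genes, dropping the low-count filter, a fit of only the groups compared, a replicate block, omission of the 6 day 0 libraries of the deletion lines or of single libraries and, for alleles, a minimum of 50 counts or scaling each allele by its own total.

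Differentiation was started on a different day for each replicate, so numbers pair samples within a line. Whether a number marks the same day in both deletion lines is not given in the sources used here. Deviations from the group means correlated with a median of 0.232 (-0.128 to 0.676, 30 pairs) for the same number in TX1072 and 0.356 (-0.0191 to 0.775, 60 pairs) within a deletion line, against -0.126 and -0.247 for different numbers. For the same number across the deletion lines, on which the block between lines rests, the median was 0.191 (-0.385 to 0.727, 75 pairs), against -0.144 for different numbers. The collagen genes, gene lists and tests were chosen with earlier results of these data known. The scripts were tested on simulated data. Sequences came from RefSeq.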

Additional observations from a re-analysis of the deposited data

Results flagged for a closer look

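The change of Col1a1 from day 1 to day 4 differed between the deletion lines, with a log2 difference of 2.13 ± 0.42 (SE) between TXdXicCast and TXdXicB6 by a direct test of the difference (edgeR, adjusted p = 0.0155). On the log2 scale, TXdXicCast minus TXdXicB6 was -0.74 at day 1 and 1.39 at day 4. It was no longer called when replicate 3 of TXdXicB6 at day 4, of TXdXicCast at day 1 or of TXdXicCast at day 4 was left out, or when only the libraries of days 1 and 4 were fitted (2.13, adjusted p = 0.0618), with log2 differences between 1.77 and 2.67 over all omissions.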

How the results depend on the processing

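Most calls kept their direction and side of the threshold. Over the named genes, 433 of the alternative values stayed on the main fit's side of the threshold, called or not, 48 lost a call and 8 gained one. Of the 433, 192 were of TX1072 from day 0 to day 4, where no call was lost. The differences between the deletion lines were less stable. There 83 values stayed and 21 lost a call at day 4, 6 stayed and 7 lost one at day 2, and 18 stayed and 8 gained one at day 3. With other size factors the median of all genes moved by at most 0.034 on the log2 scale.

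In TX1072, 6 collagen genes instead of 13 rose from day 1 to day 2 when only the groups compared were fitted, and 3 instead of 5 fell from day 2 to day 3 without the filter (3 to 4 with single libraries left out). Averaged over days, 5 to 8 genes had more Cast counts with one replicate number left out (8 with all).

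Between the deletion lines at day 1, 1 gene was lower with the replicate block (0 without), when 61 of all genes were lower with it and 33 without. At day 2 the 1 lower gene became 0 with DESeq2 size factors and 0 with only the groups compared (0 to 1 with single libraries left out). Of all genes, 29 were lower in the main fit, 33 with DESeq2 size factors and 29 with only the groups compared. At day 3, 0 higher genes became 2 by DESeq2, 4 without the filter, 2 with the replicate block, 1 without the 6 day 0 libraries and 0 to 1 with single libraries left out. Among all genes 159 were higher in the main fit, and 351, 359, 266, 177 and 36 to 264 in the same order of settings. At day 4 the 7 higher genes became 2 to 8 with single libraries left out, and the 1 lower gene became 0 with each library left out, 0 with DESeq2 size factors and 0 with only the groups compared. Of all genes, 794 were higher in the main fit and 277 to 893 with single libraries left out. Lower were 308 in the main fit, 57 to 388 with single libraries left out, 344 with DESeq2 size factors and 93 with only the groups compared. With no filter at day 3, Col4a1 and Col4a2 were among the genes that gained a call. For the difference of changes, the 1 gene was Col1a1, and Col4a1 in its place with only the groups compared, and it became 4 by DESeq2, 5 without the filter, 4 with the replicate block, 2 without the 6 day 0 libraries and 0 to 2 with single libraries left out. Here 130 of all genes were higher in the main fit and 53 with only the groups compared. They were 290, 341, 230, 121 and 20 to 191 in the other settings, in the order given. The cause of these shifts was not tested. The replicate block changed no other count of called collagen genes by over 1.5 times.

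Allele ratios of the X-linked pair rested on few day 0 counts. With one replicate left out, the log2 change in TXdXicB6 ranged from -2.39 to 0.87 for Col4a5 (0.87 without replicate 3) and from -7.04 to -6.71 for Col4a6 (-6.71, adjusted p = 0.0619 by edgeR, without replicate 2). In TXdXicCast it ranged from 0.89 to 5.95 for Col4a5 (5.95, adjusted p = 0.0492, without replicate 3) and from -0.46 to 2.69 for Col4a6 (-0.46 without replicate 1). Summed collagen CPM in single cells was 217.5 at day 0 after thinning and 214.6 as a mean over cells, 413.3 at day 2 after thinning, 497.6 at day 3 over all capture sites and 492.4 after thinning, and 549.6 at day 4 over all sites.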

Other observations

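Of the less abundant collagen genes, Col6a1, an obligate chain of collagen VI, had the same order of allele shares in every line. Its Cast share at day 0 was 97.9 ± 3.58% in TX1072, 98.5 ± 2.6% in TXdXicB6 and 100% in TXdXicCast, on 46, 45 and 91 allele-specific counts over 3 libraries. At day 4 it was 58.4 ± 18.3%, 62.4 ± 6.78% and 50.9 ± 13.7%, on 107, 97 and 121 counts (SD, n = 3). Col5a2 went the other way, from 9, 9 and 60 counts with a Cast share of 8.33 ± 14.4%, 9.53 ± 16.5% and 27.1 ± 13.2% at day 0 to 74.2 ± 2.08%, 69.4 ± 2.07% and 74.3 ± 4.95% at day 4. The low counts of day 0 limit both.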
